A study of Mus musculus with 2 samples.

Results

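The MS4A genes encode small membrane proteins that cross the membrane several times, of which the B-cell antigen CD20 is the best known. The genes sit side by side in a cluster, and single members are used as marks of B cells, T cells or macrophages. Here 8 of them were followed across the leukocytes of the pancreatic islet: Ms4a1, Ms4a4a, Ms4a4b, Ms4a4c, Ms4a6b, Ms4a6c, Ms4a6d and Ms4a7. They were taken by symbol from the 32285 genes of the deposited matrices, which hold 19 genes whose symbol starts with Ms4a. All 8 had UMIs in both libraries and none was dropped by a filter.

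The cells came from female mice of the NOD strain, which develops autoimmune diabetes, aged 12 weeks. One library is labelled WT NOD and the other NOD.Cxcl16-/-, a NOD strain labelled as lacking Cxcl16, which encodes a chemokine that binds the receptor CXCR6. In both, islets were picked by hand from collagenase-digested pancreas, dispersed without enzymes and sorted as live CD45+ CD31- cells, so that leukocytes were kept and endothelial cells left out. The labels do not say how many mice were pooled, and each group is a single library, so that nothing below has a replicate check between groups.

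The libraries held 13859 and 10554 barcodes with 93553185 and 98681133 unique molecular identifiers (UMIs, each standing for 1 captured RNA molecule). After filtering, 10894 and 9352 cells were kept at medians of 3897.5 and 4900 UMIs. Levels are given as CPM, the UMIs of a gene per 1e6 UMIs of its cells. Cxcl16 itself reached 103 CPM of the first and 102 CPM of the second library when every barcode was summed. UMIs assigned to Cxcl16 were thus found where the label gives a knockout, and that library is called by its label throughout. The libraries shared 45 barcodes, 32 of them among kept cells.

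Each cell was assigned to a type from markers that exclude every MS4A gene. A cell needed at least 2 markers of its own type (3 for cDC1, cDC2, mature DC and plasma cells), at 300 CPM or more. It also had to lack such a signal of another lineage, with exceptions. T-cell signal was allowed in NK cells and ILC2, B-cell signal in plasma cells, and cDC2 signal in macrophages and monocytes. The NK and ILC2 gates required no UMI of Trac and Cd5 but allowed the Cd3 genes. The 4 T-cell gate markers summed to 1501 CPM in NK cells of the WT NOD library and 1200 CPM in the other. In CD8 T cells they summed to 3772 and 3803 CPM. The 7 B-cell gate markers summed to 903 and 868 CPM in plasma cells, against 5811 and 5295 CPM in B cells. The 7 cDC2 gate markers summed to 5551 and 5426 CPM in monocytes and 4390 and 4199 CPM in macrophages. In cDC2 themselves they summed to 2502 and 2500 CPM. The gating placed 8949 (82.1%) and 7879 (84.2%) of the kept cells. The gates held 1915 and 2101 B cells, 6334 and 4758 T cells, 201 and 144 NK cells, 95 and 213 macrophages, 27 and 37 monocytes, and 281 and 438 dendritic cells, in the order WT NOD library first, which is kept below. T cells were divided into CD4, CD8, regulatory and gamma-delta T cells, with 2288 and 1544 cells of unresolved subtype. Dendritic cells were divided into conventional type 1 and 2 (cDC1, cDC2), mature and plasmacytoid (pDC) cells. Plasma cells (79 and 139) and group 2 innate lymphoid cells (ILC2, 17 and 49) were gated as well.

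The gates were checked against genes that were not used in them. Apoe, a gene of tissue macrophages, stood at 2549 and 3683 CPM in macrophages, at 255 and 59.5 CPM in monocytes and at 7.08 and 5.38 CPM in cDC2. It was not limited to myeloid cells, since B cells held 297 and 258 CPM, more than monocytes in both libraries. Ighd, the heavy chain of immunoglobulin D, stood at 461 and 348 CPM in B cells and at 3.77 and 1.21 CPM in T cells. Trbc2, a T-cell receptor gene, stood at 1863 and 1981 CPM in T cells and at 38.3 and 17.2 CPM in B cells. The cDC2 gate was led by Il1b, Ifitm1, Il1r2 and Ifitm3, so cells of that gate are called cDC2 by the gate and not by these genes.

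All 8 genes lie on chromosome 19 of GRCm38 within 355 kb, from 11249675 to 11604849, where 11 of 12 protein-coding genes of GENCODE M21 are MS4A genes. Ms4a1 (ENSMUSG00000024673) spans 11249675 to 11266241 on the minus strand, and Ms4a7 (ENSMUSG00000024672) spans 11321039 to 11336146 on the minus strand. Ms4a4a (ENSMUSG00000101389, 11375523 to 11392790), Ms4a4c (ENSMUSG00000024675, 11404770 to 11427246), Ms4a4b (ENSMUSG00000056290, 11443553 to 11467055), Ms4a6c (ENSMUSG00000079419, 11469366 to 11482192) and Ms4a6b (ENSMUSG00000024677, 11516512 to 11531256) follow on the plus strand. Ms4a6d (ENSMUSG00000024679) closes the row on the minus strand, at 11586604 to 11604849.

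Ms4a4b and Ms4a4c, and likewise Ms4a6b and Ms4a6c, are shown with the 250 bases before a RefSeq transcript start because each pair has like upstream sequence and, as given below, unlike cells in which it was highest. The sequences are those of RefSeq for GRCm38.p6, all on the plus strand, at chr19:11443308-11443557, chr19:11407411-11407660, chr19:11518309-11518558 and chr19:11469118-11469367. They end at the start of the RefSeq transcript, which for each gene lies inside the GENCODE gene span given above. The windows of Ms4a4c and Ms4a6b lie wholly inside that span and so do not precede the first annotated start. Those of Ms4a4b and Ms4a6c reach only a few bases into it. Capitals mark runs of at least 10 bases that are identical between the members of a pair.
Ms4a4b: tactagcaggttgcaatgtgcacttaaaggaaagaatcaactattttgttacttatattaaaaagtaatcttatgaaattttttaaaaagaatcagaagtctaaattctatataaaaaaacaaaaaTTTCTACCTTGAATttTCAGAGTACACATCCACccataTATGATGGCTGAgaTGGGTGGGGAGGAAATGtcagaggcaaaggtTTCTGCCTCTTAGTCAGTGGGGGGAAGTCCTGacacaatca
Ms4a4c: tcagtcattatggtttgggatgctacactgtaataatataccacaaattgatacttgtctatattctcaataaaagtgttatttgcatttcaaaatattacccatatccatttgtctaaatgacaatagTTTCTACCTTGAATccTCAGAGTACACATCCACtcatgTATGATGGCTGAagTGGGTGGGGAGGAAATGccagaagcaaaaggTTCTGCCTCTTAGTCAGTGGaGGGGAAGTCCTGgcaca
Ms4a6b: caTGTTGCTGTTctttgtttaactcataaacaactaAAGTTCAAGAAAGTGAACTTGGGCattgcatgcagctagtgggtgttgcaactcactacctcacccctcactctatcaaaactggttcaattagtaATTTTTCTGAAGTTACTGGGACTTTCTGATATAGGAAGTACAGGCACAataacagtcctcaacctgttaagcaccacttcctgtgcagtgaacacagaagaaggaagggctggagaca
Ms4a6c: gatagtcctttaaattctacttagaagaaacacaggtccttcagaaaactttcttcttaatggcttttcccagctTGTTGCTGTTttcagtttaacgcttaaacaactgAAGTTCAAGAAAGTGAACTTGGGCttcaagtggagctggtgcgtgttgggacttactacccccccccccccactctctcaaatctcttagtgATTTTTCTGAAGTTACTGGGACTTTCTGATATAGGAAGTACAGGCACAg
The best local alignment of the Ms4a4b and Ms4a4c windows covered 133 columns with 88.0% identical bases, all within 136 bases of the start. That of Ms4a6b and Ms4a6c covered 180 columns with 82.2% identical bases and held a run of 48 identical bases. It ends 71 bases before the start of Ms4a6b and 2 bases before that of Ms4a6c, so the like sequence is offset between the windows. Aligned over the whole window, Ms4a4b and Ms4a4c were 69.6% identical, and the other pairs of the 6 members with a promoter entry, Ms4a6b and Ms4a6c among them, 43.4 to 49.3%. Over both strands of these windows, the interferon-stimulated response element, searched as GAAA, any 2 bases and GAAA, had no match in the 7 windows of the 6 members and was held by 2.98% of the 32851 mouse promoter windows of this length. The gamma-activated site TTCNNNGAA had no match in them either, against 7.02% of all windows. The letters AGGAAGT, the core bound by ETS factors, matched in Ms4a6b and Ms4a6c and in 7.69% of all windows, and TGTGGT, the core bound by RUNX factors, matched in Ms4a4c and in 14.0%. A match describes the letters only and shows no binding.

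The like sequence reaches into the transcripts, which bears on how UMIs are counted. The longest stretch identical in the longest coding transcripts was 127 bases for Ms4a4b and Ms4a4c, 96 for Ms4a6b and Ms4a6c, and 81 for Ms4a6b and Ms4a6d. In the last 500 bases, where reads of a 3' library fall, 11.8% of the 50-base windows of Ms4a4c were found in Ms4a4b and 10.4% of those of Ms4a6c in Ms4a6b. Counts of these pairs are uncertain to the extent that reads fell there.

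Ms4a1, which encodes CD20, a partner of the B-cell receptor and the target of B-cell-depleting antibodies, was highest in B cells. It stood at 775 CPM in WT NOD B cells, with an exact Poisson 95% interval of 756 to 793 that covers counting error only, and at 823 CPM (806 to 839) in B cells labelled NOD.Cxcl16-/-. These values rest on 6910 and 9827 UMIs. Plasma cells, in which CD20 is known to be lost, held 74.0 and 122 CPM. Their gate did not exclude B-cell markers, and the part of B-cell transcripts in these values was not tested. B cells thus stood above plasma cells in both libraries, and plasma cells stood above every other gated type.

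Unthinned, 84.8% and 91.7% of B cells had a UMI of Ms4a1 at median depths of 4329 and 4563 UMIs. After each cell was thinned to 2000 UMIs, the shares were 74.9% and 77.9%, with 274 and 111 shallower B cells left out. T cells, which lack CD20, gave 0.714% and 0.313% after thinning and 2.07% and 0.862% before it. Ms4a1 in T cells reached 0.556% and 0.159% of its B-cell CPM. The B-cell gene Fcer2a reached 0.746% and 0.263%, and Ighd 0.817% and 0.348%, so Ms4a1 was no higher in T cells than these B-cell genes were. Whether these UMIs came from free RNA or from pairs of cells under 1 barcode was not tested.

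The level of Ms4a1 varied little over the B-cell states. Follicular-like B cells, called from genes such as Fcer2a, Cr2 and Ighd, held 776 and 813 CPM. B cells with Bhlhe41, Zbtb32 or Zcwpw1, named Bhlhe41-type here, held 799 and 851 CPM. Germinal-centre-like B cells were few, with 14 and 61 cells, and held 673 and 821 CPM.

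Ms4a4b, a T-cell member reported to bind the receptor GITR (Tnfrsf18), was highest in NK cells and CD8 T cells. NK cells held 1330 (1256 to 1407) and 1140 CPM (1063 to 1220), and CD8 T cells held 1183 and 1083 CPM. CD4 T cells followed at 772 and 671 CPM, gamma-delta T cells at 834 and 596 CPM, and regulatory T cells at 433 and 303 CPM. The ranges of the 2 libraries overlapped between NK and CD8 T cells and between CD4 and gamma-delta T cells, and they did not overlap between these pairs or with regulatory T cells.

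Except for gamma-delta T cells, the order of detection was the same. Gamma-delta T cells gave 60.5% and 50.5% after thinning, below CD4 T cells in both libraries. After thinning, 87.4% and 90.5% of NK cells, 83.7% and 81.9% of CD8 T cells, 72.0% and 68.9% of CD4 T cells and 45.9% and 34.2% of regulatory T cells had a UMI of Ms4a4b. Tnfrsf18 ran the other way among these T cells, at 557 and 431 CPM in regulatory, 193 and 143 CPM in CD4 and 75.0 and 67.3 CPM in CD8 T cells.

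Ms4a4b was low in the remaining types. B cells held 20.3 and 7.95 CPM, which is 2.10% and 1.01% of the level in T cells. The T-cell receptor gene Trbc2 stood in B cells at 2.06% and 0.866% of its T-cell level, and Trbc1 at 2.06% and 1.06%. ILC2, lymphoid cells without an antigen receptor, gave 0 UMIs in 17 cells, which allows up to 48.2 CPM by the exact interval, and 1 UMI in 49 cells.

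Within CD8 T cells Ms4a4b was highest in the effector-like state, called from genes such as Ccl5, Nkg7 and Gzmk. These cells held 1390.4 and 1298 CPM, against 826 and 716 CPM in naive-like cells (Ccr7, Lef1 and others) and 1093 and 1053 CPM in activated-like cells (Pdcd1, Lag3, Havcr2 and others). Each of these 3 states was separated from the others in both libraries. Among CD4 T cells the effector-like state was highest as well, at 929 and 942 CPM, and the activated-like state lowest, at 730 and 552 CPM.

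Ms4a6b, which like Ms4a4b has been found with GITR on T cells, was shared by lymphoid and myeloid cells. It stood at 448 and 401 CPM in CD8, 434 and 361 CPM in CD4, 384 and 311 CPM in regulatory and 346 and 296 CPM in gamma-delta T cells. Monocytes held 310 and 223 CPM, macrophages 240 and 149 CPM, cDC2 201 and 138 CPM and NK cells 163 and 139 CPM. Each neighbour in this order overlapped the next in the range of the libraries down to NK cells, so no step along it was larger than the difference between libraries.

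NK cells stood above T cells as a whole in Ms4a4b, at 1330 and 1140 against 965 and 790 CPM, and below them in Ms4a6b. After thinning, 22.9% and 23.4% of NK cells had a UMI of Ms4a6b, against 57.7% and 54.5% of T cells. B cells held 91.4 and 80.1 CPM, 20.9% and 21.2% of the T-cell level, well above the share that Trbc2 reached there. Plasma cells were the lowest of the 14 gated types, at 7.26 and 12.8 CPM.

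**Figure D1:**
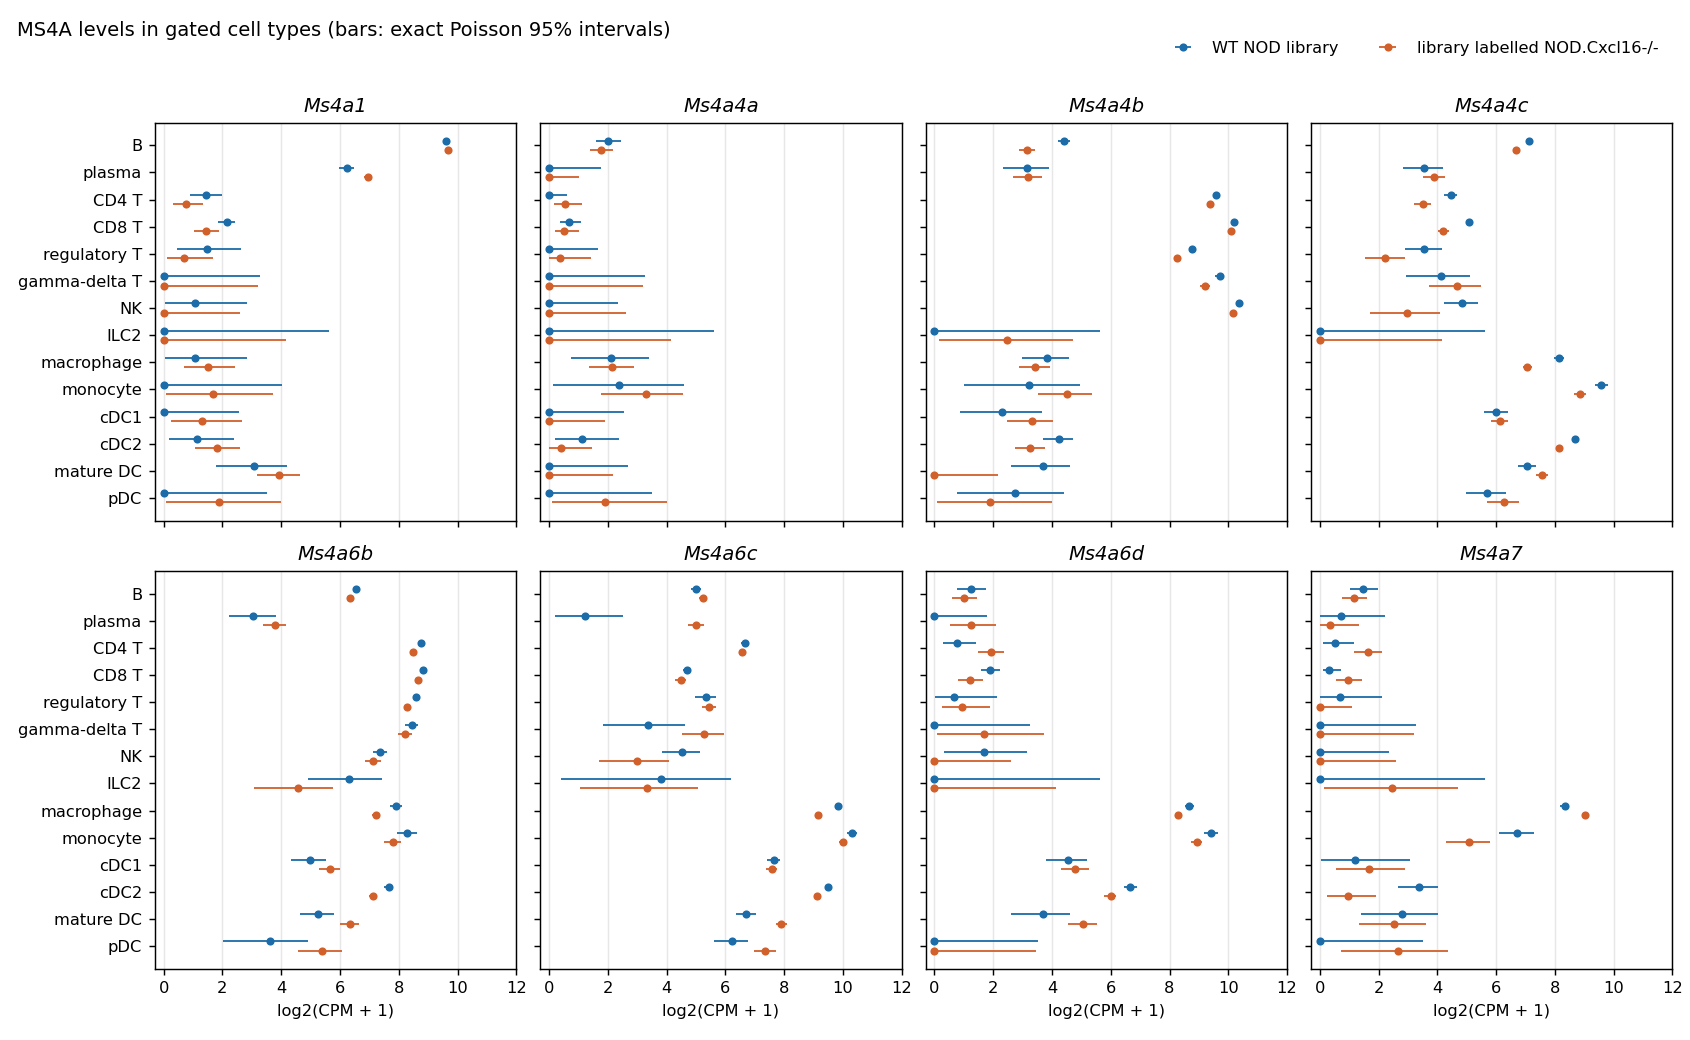
Level of each MS4A gene in 14 gated cell types as log2(CPM + 1), with points for the WT NOD library (blue) and the library labelled NOD.Cxcl16-/- (orange) and bars for exact Poisson 95% intervals, which cover counting error only. Ms4a1 peaks in B cells, Ms4a4b in NK and T cells, Ms4a7 in macrophages and Ms4a6d in monocytes and macrophages, while Ms4a6b is spread over T and myeloid cells and Ms4a4a stays low in every type.

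Ms4a4c, a member found in both myeloid and lymphoid cells, was highest in monocytes. Monocytes held 766 (659 to 886) and 460 CPM (400 to 527), cDC2 411 and 280 CPM, macrophages 280 and 132 CPM, and mature DC 132 and 189 CPM. B cells held 138 and 101 CPM, more than T cells at 30.8 and 13.1 CPM and NK cells at 27.6 and 6.89 CPM. Its neighbour Ms4a4b, with the like promoter shown above, was at 20.3 and 7.95 CPM in B cells and at 8.37 and 22.0 CPM in monocytes, from 2 and 10 UMIs.

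B-cell states differed in Ms4a4c. Follicular-like cells held 160 and 134 CPM and Bhlhe41-type cells 73.9 and 65.3 CPM. In CD8 T cells the naive-like state was highest, at 64.8 and 39.3 CPM, and the activated-like state held 16.9 and 9.98 CPM. In both lineages the direction was the same in the 2 libraries.

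Ms4a6c, a member best known from myeloid cells, was highest in monocytes, at 1264 (1126 to 1415) and 1024 CPM (933 to 1122). Macrophages held 918 and 574 CPM and cDC2 726 and 557 CPM, and the ranges of macrophages and cDC2 over the libraries overlapped. The other dendritic cells were lower, with 199 and 190 CPM in cDC1, 104 and 239 CPM in mature DC and 73.5 and 162 CPM in pDC. After thinning, 88.5% and 75.7% of monocytes, 78.4% and 56.4% of macrophages and 69.3% and 66.5% of cDC2 had a UMI.

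Ms4a6c was also found in T cells, most in CD4 T cells. In T cells as a whole its share of the macrophage level was larger than those of Lyz2 and Apoe. It was not larger than that of Ms4a4c, at 11.0% and 9.92%. CD4 T cells held 99.6 and 94.8 CPM and CD8 T cells 25.2 and 21.3 CPM. All T cells together stood at 5.80% and 9.36% of the macrophage level of Ms4a6c. For Lyz2, which encodes the lysozyme of myeloid cells, the same share was 0.263% and 0.424%, and for Apoe 0.247% and 0.415%.

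Among CD4 T cells the activated-like state held 156 and 119 CPM of Ms4a6c. Naive-like CD4 T cells held 42.5 and 47.6 CPM. Activated-like CD8 T cells held 20.9 and 16.6 CPM, so the higher level went with the activated-like state of CD4 and not of CD8 T cells. The B-cell states were ordered opposite to Ms4a4c, with 72.4 and 68.6 CPM in Bhlhe41-type cells and at most 19.1 CPM in follicular-like cells.

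**Figure D2:**
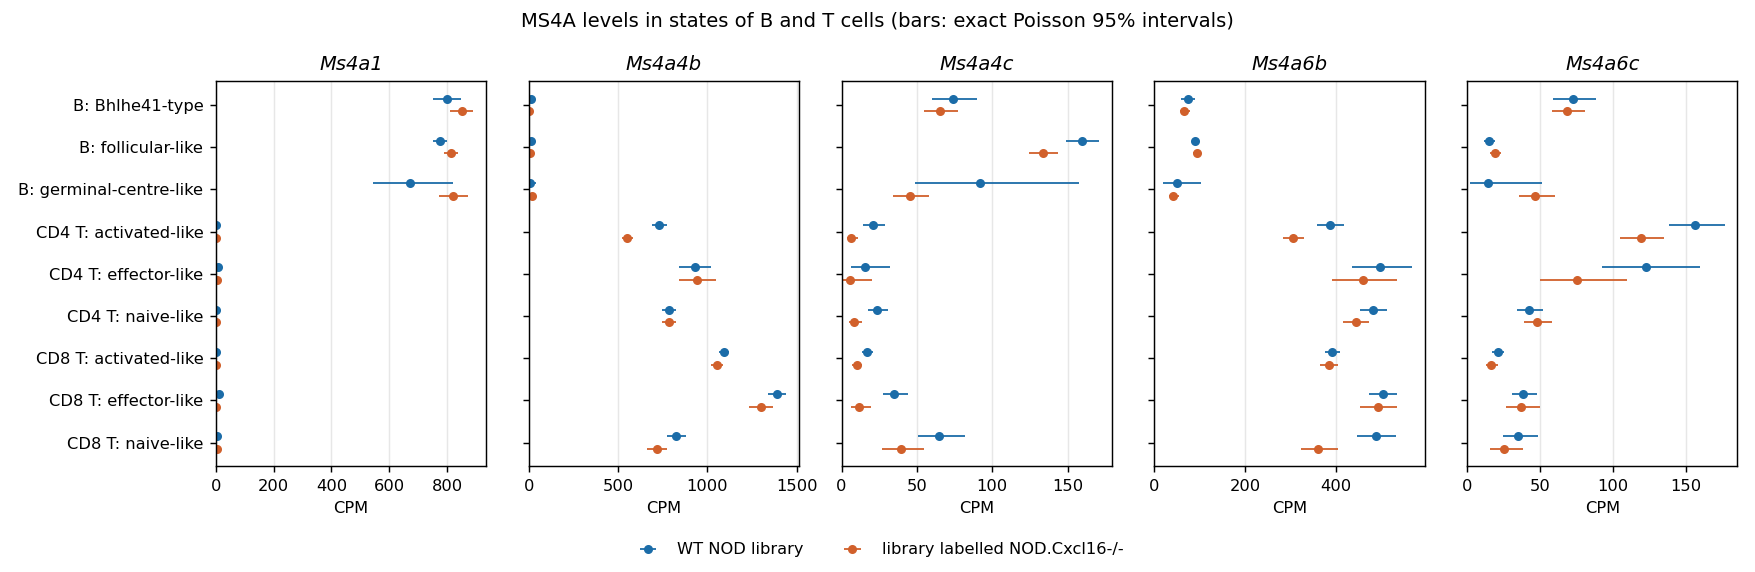
CPM of 5 MS4A genes (horizontal axes, one scale per gene) in states of B, CD4 T and CD8 T cells, with points for the 2 libraries and bars for exact Poisson 95% intervals. Ms4a1 is nearly flat over B-cell states, Ms4a4c is higher in follicular-like than in Bhlhe41-type B cells and Ms4a6c lower, and Ms4a6c is highest in activated-like CD4 T cells.

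Ms4a6d, a member of monocytes and macrophages, stood at 682 (582 to 796) and 487 CPM (425 to 556) in monocytes and at 408 and 314 CPM in macrophages. It was lower in dendritic cells, at 101 and 62.7 CPM in cDC2 and 22.4 and 26.7 CPM in cDC1, and pDC gave 0 UMIs in both libraries, which allows up to 10.4 and 9.96 CPM by the exact intervals. B cells held 1.35 and 1.00 CPM, 0.330% and 0.320% of the macrophage level, where Lyz2 reached 0.194% and 0.217% of its own.

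The cDC2 gate was uneven in Ms4a6d. Cells with a UMI of Cd209a, Clec10a or Mgl2, genes of one group of cDC2, held 162 and 104 CPM, and cells without any of them held 51.3 and 27.8 CPM. Ms4a4c and Ms4a6c did not show this split, at 396 and 280 against 424 and 281 CPM for Ms4a4c and at 697 and 547 against 750 and 566 CPM for Ms4a6c.

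Ms4a7, a macrophage member, was highest in macrophages, at 321 (285 to 360) and 514 CPM (487 to 542). Monocytes held 105 and 33.0 CPM, from 25 and 15 UMIs, and each dendritic type held 9.45 CPM or less. After thinning, 40.5% and 54.3% of macrophages and 11.5% and 5.41% of monocytes had a UMI. Macrophages and monocytes were thus set apart by Ms4a7 and, in the other direction, by Ms4a4c, Ms4a6c and Ms4a6d.

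Ms4a4a, whose human counterpart is a marker of alternatively activated macrophages, was low in every type. Macrophages held 3.30 and 3.37 CPM from 3 and 9 UMIs, monocytes 4.19 and 8.81 CPM from 1 and 4 UMIs, and B cells 3.03 and 2.43 CPM from 27 and 29 UMIs. The intervals of the myeloid values reach from 0.106 to 23.3 CPM in monocytes of the WT NOD library, so the order of the types was not resolved at this depth. In CD4 T cells 0 UMIs of the WT NOD library allow up to 0.522 CPM by the exact interval, below the level in B cells.

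Counted per cell, several members were found together most often in monocytes and macrophages. After thinning, 2 or more of the 8 genes had a UMI in 84.6% and 78.4% of monocytes and 77.0% and 64.9% of macrophages. In T cells the share was 50.9% and 46.0%, in dendritic cells 31.1% and 31.4%, in B cells 31.0% and 28.2%, in NK cells 24.6% and 25.5% and in plasma cells 3.95% and 3.01%. No member had a UMI in 81.6% and 74.4% of plasma cells, in 43.6% and 34.2% of dendritic cells and in 14.4% and 13.6% of B cells.

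**Figure D3:**
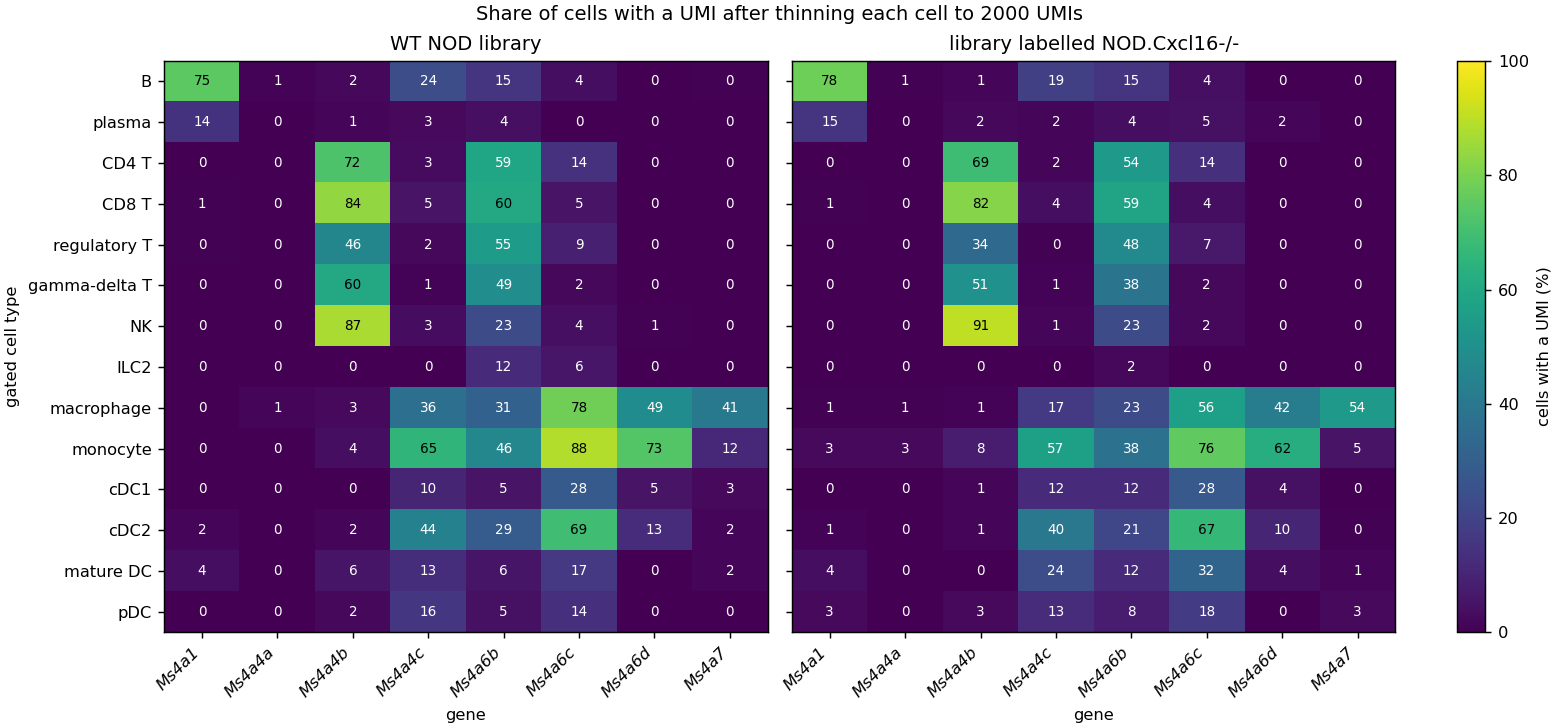
Share of cells with a UMI of each MS4A gene (columns) in 14 gated types (rows) after each cell was thinned to 2000 UMIs, as percent written in each field, for the 2 libraries. Monocyte and macrophage rows hold several members at once, NK cells mainly Ms4a4b, and plasma cells few of any.

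Over the 14 gated types in 2 libraries, 28 points that share libraries, Ms4a6c and Ms4a6d followed each other most closely of the 28 pairs of members, with Pearson's r of 0.88 on log2(CPM + 1). Next were Ms4a6d and Ms4a7 at 0.82 and Ms4a4c and Ms4a6c at 0.80. Ms4a4b and Ms4a6b had an r of 0.66, and Ms4a1 had none above 0.21. These values describe the types compared and carry no test.

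Among 9612 other genes with at least 20 CPM in a type, the 5 with the pattern most like each member were taken by r over the same points. For Ms4a1 they included Ebf1, which was used in the B-cell gate, Vpreb3, Scd1 and Gm43388, with r from 0.92 to 0.94. For Ms4a4b they were Sh2d1a, which encodes a signalling adaptor of T and NK cells, Ifng, Gm2682, Fasl and Ipcef1, at 0.93 to 0.96. For Ms4a6d they were Clec4a2, Tlr13, Clec5a, Clec4a3 and the gate gene Lyz2, at 0.96 to 0.97.

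Ms4a4c went with Gngt2, Spi1 (encoding the myeloid and B-cell factor PU.1), Fgr, Pira2 and Zbtb18, at 0.91 to 0.93. Ms4a6c went with Ifitm2, Vamp8, Igsf6, Cd300c2 and Ifitm3, at 0.93 to 0.94. Ms4a7 went with Gm31522, Il23a, Gdf3, the gate gene Trem2 and Plau, at 0.92 to 0.95. The likeness was weaker for Ms4a6b, whose nearest genes Gmfg, Limd2, Idh3b, AW112010 and Cotl1 reached 0.83 to 0.89, and for Ms4a4a, whose nearest genes Mgst1, C3, Csf3r, Msr1 and Chil1 reached 0.80 to 0.81.

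Interferon raises many immune genes at once, and the cells were therefore split by a list of 10 interferon-stimulated genes (Ifit1, Ifit3, Ifit3b, Isg15, Usp18, Irf7, Rsad2, Oasl1, Ifi44 and Rtp4). Cells with at least 2 of them after thinning were set against cells with none. Ms4a4c was higher in the former in macrophages, at 423 against 187 CPM in the WT NOD library and 243 against 80.6 CPM in the other, from 37 against 15 and from 48 against 80 cells. In dendritic cells it stood at 446 against 161 CPM and at 280 against 154 CPM. In T cells the libraries parted, with 68.6 against 24.5 CPM in the WT NOD library and 11.1 against 12.1 CPM in the other. The latter rests on 152 against 3637 cells, and its subtypes disagreed. There CD4 T cells held 16.6 against 9.66 CPM, from 38 against 1042 cells. CD8 T cells there held 0 against 17.4 CPM, from 37 against 1100 cells. In WT NOD T cells the myeloid members were higher with Ms4a4c, Ms4a6d at 14.8 against 1.25 CPM (24 and 31 UMIs) and Ms4a6c at 81.6 against 47.1 CPM. In T cells of the other library Ms4a6d was higher, at 2.79 against 1.5 CPM (2 and 39 UMIs), and Ms4a6c lower, at 43.2 against 53.4 CPM. The part of myeloid transcripts in the T-cell values was not tested.

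Ms4a4b and Ms4a6b were higher in T cells with these genes, by more in the WT NOD library. Ms4a4b stood at 1472 against 905 CPM there and at 896 against 781 CPM in the other library, and Ms4a6b at 660 against 404 and at 464 against 372 CPM. Ms4a6c moved less in macrophages, at 1086 against 813 and at 711 against 508 CPM. Ms4a7 stood in macrophages at 374 against 242 and at 530 against 491 CPM.

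**Figure D4:**
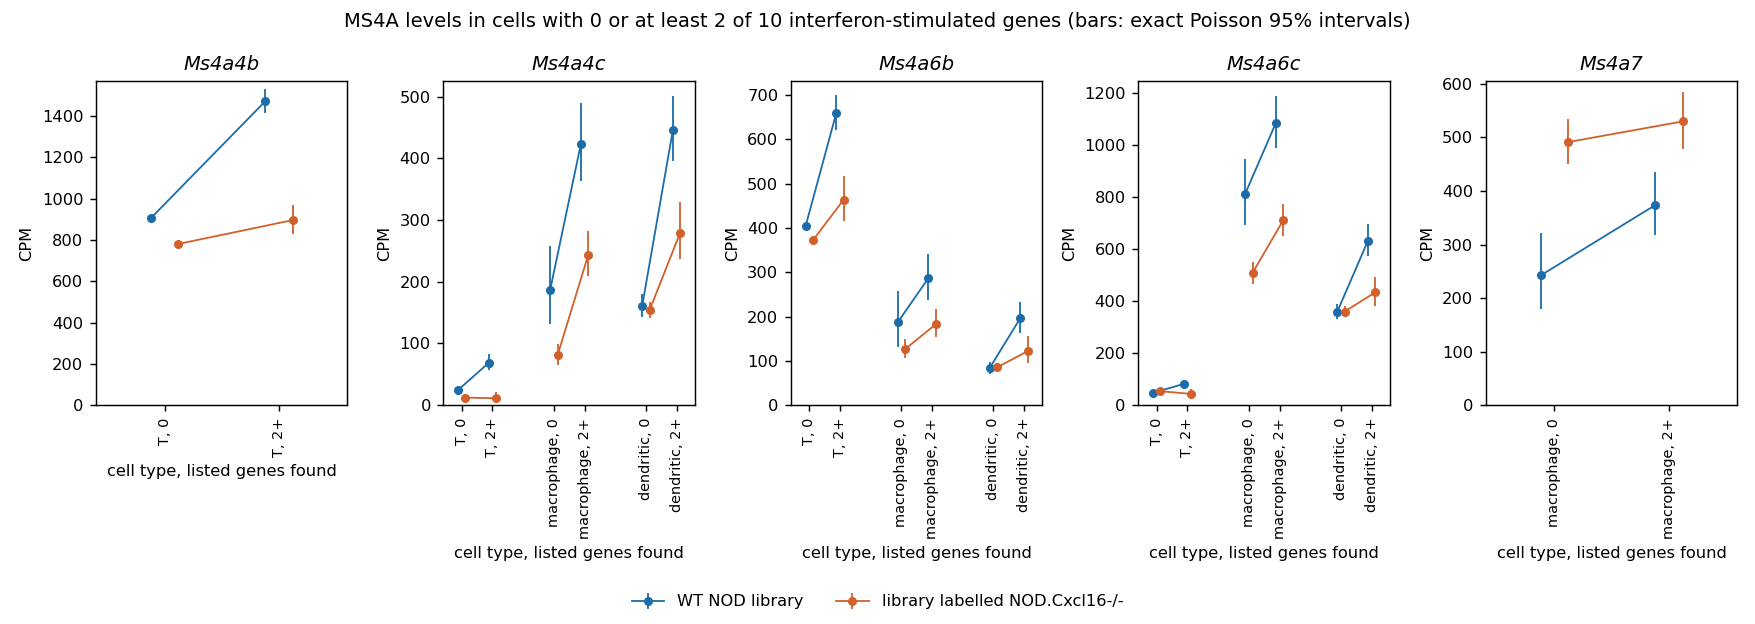
CPM of 5 MS4A genes in T cells, macrophages and dendritic cells with 0 or with at least 2 (2+) of 10 interferon-stimulated genes found after thinning, in the WT NOD library (blue) and the library labelled NOD.Cxcl16-/- (orange), with exact Poisson 95% intervals. Ms4a4c is higher with these genes in macrophages and dendritic cells of both libraries and in T cells of the WT NOD library. In T cells of the other library it stands at 11.1 against 12.1 CPM, from 152 against 3637 cells.

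Between the libraries, a ratio is that of the NOD.Cxcl16-/- label to WT NOD on the scale of log2(CPM + 1), given where a member had at least 20 UMIs in both together. Of 48 pairs of a member and 1 of the 6 lineages, 38 could be measured. Of these, 16 were past 1.5-fold, and 31 of 38 ratios were below 0. The rule is one of size, with counting intervals and no test.

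Each count is read against all genes of the same cells. In T cells 4 of 8 members were past 1.5-fold, against 3.27% of all genes measured. In B cells it was 1 of 8 against 7.93%, in NK cells 2 of 4 against 15.9%, in macrophages 4 of 6 against 20.9%, in monocytes 2 of 5 against 31.8% and in dendritic cells 3 of 7 against 11.5%. Of the 4 in T cells, Ms4a1, Ms4a6d and Ms4a7 stood at 4.30 CPM or less in both libraries, far below B cells or macrophages. The median ratio of the members was -0.23 in B, -0.25 in T, -0.89 in NK, -0.54 in macrophage, -0.49 in monocyte and -0.27 in dendritic cells, while that of all genes lay between 0.00 and 0.07.

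Ms4a4c was past the fold in 4 of the 6 lineages, in the same direction each time. It was lower in the library labelled NOD.Cxcl16-/- in T cells (30.8 to 13.1 CPM, log2 ratio -1.17, -1.33 to -1.01), NK cells (27.6 to 6.89 CPM, -1.86, -3.27 to -0.56, from 25 and 5 UMIs), macrophages (280 to 132 CPM, -1.08, -1.31 to -0.84) and monocytes (766 to 460 CPM, -0.73, -1.03 to -0.44). B cells (-0.45) and dendritic cells (-0.27) were on the same side and within the fold, and in dendritic cells the ratio was 0.10 after thinning. The dendritic types differed in direction. Ms4a4c was lower in cDC2 (411 to 280 CPM) and higher in mature DC (132 to 189), pDC (50.9 to 75.6) and cDC1 (63.3 to 68.9). Gamma-delta T cells were higher as well (16.4 to 24.5 CPM, from 7 and 11 UMIs), while the other T-cell groups were lower. The ratios in T cells and macrophages stayed past 1.5-fold under all 13 alternatives that gave them a value, and the NK value became -0.19 with a stricter gate of 3 markers. The monocyte ratio was past it under 10 of 12, and was -0.57 with that gate and -0.58 with doublets kept.

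The share of cells with at least 2 interferon-stimulated genes moved in the same direction, being 37 of 74 thinned macrophages against 48 of 188 (25.5%), and 6.34% against 3.40% of T cells. Among macrophages with none of these genes Ms4a4c stood at 187 and 80.6 CPM, and among T cells with none at 24.5 and 12.1 CPM. The part of these genes in the T-cell and macrophage ratios of all cells was not tested beyond this. Whether it comes from the genotype, the animals or the handling of the libraries cannot be told apart.

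In macrophages Ms4a6b stood at 240 and 149 CPM (-0.68, -0.92 to -0.43) and Ms4a6c at 918 and 574 CPM (-0.68, -0.80 to -0.55). Ms4a6d was lower by less than the fold, at 408 and 314 CPM (-0.38). Ms4a7 lay the other way, at 321 and 514 CPM (0.68, 0.50 to 0.87), and so did Apoe, at 2549 and 3683 CPM, whose part in this was not tested. The Ms4a7 ratio rested on which cells were called macrophages: it was 0.01, at 347 and 348 CPM, with types taken from clusters, and 1.81, at 151 and 533 CPM, in the 49 and 126 macrophages with no UMI of a T or B marker, an alternative chosen after the data were seen. In those cells the Ms4a6b ratio was -0.50, within the fold. The Ms4a7 ratio was 0.55, within the fold, both after thinning and with a gate of 3 markers.

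In monocytes Ms4a7 was lower in the library labelled NOD.Cxcl16-/- (105 to 33.0 CPM, -1.63, -2.63 to -0.67), from 25 UMIs in 8 of 27 cells and 15 UMIs in 5 of 37 cells. Apoe, a macrophage gene that was not used in the gates, was lower with it, at 255 and 59.5 CPM, and its part in the result was not tested. Without the barcodes present in both libraries, also tried after the data were seen, the Ms4a7 ratio became -2.46. Ms4a6c and Ms4a6d were lower in monocytes by less than the fold, at -0.30 and -0.49.

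**Figure D5:**
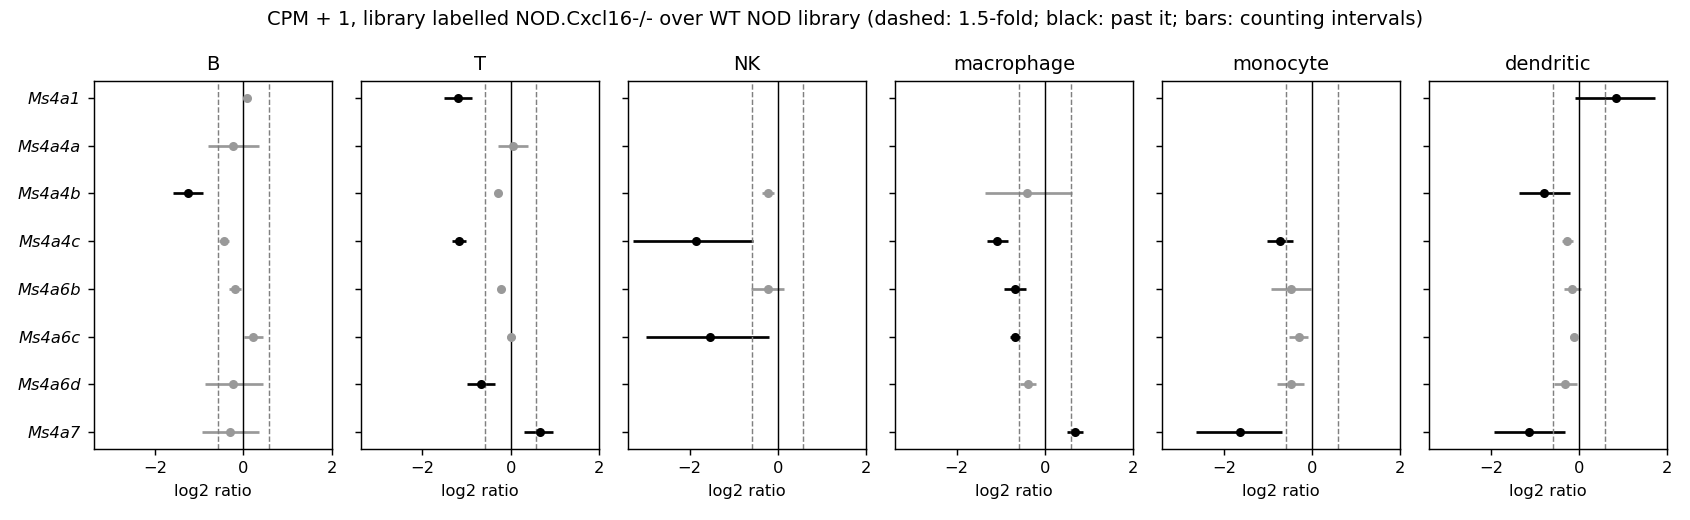
log2 ratio of CPM + 1 (NOD.Cxcl16-/- label over WT NOD) of each MS4A gene in 6 lineages, for the 38 pairs with at least 20 UMIs, with counting intervals and dashed lines at 1.5-fold. Ms4a4c lies below 0 in all 6 lineages, Ms4a7 lies above 0 in macrophages and below it in monocytes, and Ms4a1 in B cells and Ms4a4b in T cells lie within the fold.

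In their home cells the lymphoid members stayed within the fold. Ms4a1 in B cells had a ratio of 0.09 (0.04 to 0.13), Ms4a4b in T cells of -0.29 (-0.31 to -0.26) and in NK cells of -0.22, and Ms4a6b in T cells of -0.21 (-0.24 to -0.17). By subtype Ms4a4b stood at 1183 and 1083 CPM in CD8, 772 and 671 in CD4, 433 and 303 in regulatory and 834 and 596 in gamma-delta T cells. CD8 T cells were 2415 of 6334 and 1431 of 4758 T cells, and the part of this in the pooled ratio was not tested. Ms4a4b in B cells was past the fold at -1.25, and the summed level of the 4 T-cell gate markers in B cells was 51.3 and 27.0 CPM. Their part in that ratio was not tested. The dendritic pairs past the fold were Ms4a1, Ms4a4b and Ms4a7, each at 12.4 CPM or less in both libraries, and Ms4a6c in NK cells was past it from 20 and 5 UMIs, at -1.55, and at -0.03 with a gate of 3 markers.

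In finer types, mature DC had 4 of 5 members past 1.5-fold against 27.4% of all genes, and all 5 ratios were above 0. Ms4a6c stood there at 104 and 239 CPM (1.19), Ms4a6b at 37.1 and 79.3 CPM (1.07) and Ms4a6d at 11.9 and 32.5 CPM (1.38), in 61 and 87 cells. The median over all genes was 0.13. Lyz2 moved with them, at 62.4 and 342 CPM, and its part was not tested. In cDC2 all 5 ratios were below 0 and 2 of 5 were past the fold, against 14.7% of all genes.

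Plasma cells had 3 of 5 members past 1.5-fold against 41.7% of all genes, and all 5 ratios were above 0, where the median over all genes was 0.43. Ms4a6c stood there at 1.32 and 31.0 CPM, from 2 and 112 UMIs, and Lyz2 at 3.96 and 18.6 CPM. Relative to the macrophage level that is 0.144% and 5.41% for Ms4a6c and 0.0406% and 0.263% for Lyz2, whose part in this was not tested.

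The remaining MS4A genes were nearly silent in these cells. Ms4a4d reached 0.867 and 1.37 CPM in T cells, from 29 and 43 UMIs. Ms4a12 gave 1 and 11 UMIs and Ms4a14 1 and 7 UMIs in macrophages, and Ms4a8a gave 1 and 5 UMIs in monocytes. Ms4a5 and Ms4a18 had 0 UMIs over all barcodes of both libraries. Tmem176a and Tmem176b, related genes outside the cluster, were highest in mature DC, at 1248 and 1526 CPM and at 943 and 1212 CPM, where Ms4a6d and Ms4a7 were low, and Tmem176b stood at 241 and 387 CPM in gamma-delta T cells.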

How the data were processed

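The deposited matrices hold UMI counts per gene and barcode, whole numbers without normalisation, as the values show. Per the submitters' processing notes they were made with Cell Ranger 7.0.1 on mm10, and per the labels' protocols from a 3' v3.1 chemistry. Whether strand and intronic reads were counted is not given in the sources used here. A barcode was dropped for having under 500 genes (1582 and 311) or a mitochondrial share over 10% (25 and 29). Doublet scores came from simulated pairs, with 2 simulated per barcode, and removed at 0.8% for each 1000 barcodes (1358 and 862).

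Types came from marker gates that hold no MS4A gene. Of the kept cells, 1938 and 1452 met no gate (median UMIs 1997 and 7145.5) and 7 and 21 met several. The gates were adjusted after markers, not MS4A values, were seen. CPM are summed UMIs over the type's total. Intervals are exact Poisson for CPM and cover counting error only. With 1 library per group no p-value is given, and cells are not replicates. Named genes are the 8 members, the other MS4A genes with Tmem176a and Tmem176b, the 5 nearest genes per member, named partners, interferon genes and gate markers, of which some are not reported here. Members and lists were chosen with earlier results of these data known. The ratio step was tested on simulated data. Python 3.11.15, scipy 1.17.1, scanpy 1.11.5 and Biopython 1.88 were used.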

Additional observations from a re-analysis of the deposited data

Results flagged for a closer look

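Within the 6 lineages, Ms4a7 had ratios past 1.5-fold in both directions with counting intervals clear of 0. Ms4a1 was past the fold both ways as well, at -1.20 in T cells and 0.84 in dendritic cells, where its interval of -0.09 to 1.71 includes 0. On the log2 scale, NOD.Cxcl16-/- label over WT NOD, Ms4a7 stood at 0.68 in macrophages and 0.67 in T cells, and at -1.63 in monocytes and -1.14 in dendritic cells. With 1 library per group the difference between these cell types was not tested. T cells held 0.389 and 1.21 CPM, from 13 and 38 UMIs, and dendritic cells 6.04 and 2.19 CPM, from 21 and 13 UMIs, so these 2 ratios rest on few UMIs in cells where the gene is near background.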

How the results depend on the processing

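The results were recomputed under 14 alternatives, of which 11 were planned and 3 were chosen after seeing the data. The count of 16 pairs past 1.5-fold became 10 with cells thinned to 2000 UMIs, 10 with a gate of at least 3 markers and 9 with a minimum of 100 UMIs per pair, where fewer pairs are measured, and it lay between 11 and 17 under the others. The highest type of each library was the one reported for at least 7 of 8 members under every alternative that was run but types from clusters, where it was for 3, since no cluster was named monocyte or NK. Of 469 recomputed ratios of single pairs, 409 stayed inside the reported counting interval, 58 left it and 2 that had been past the fold changed sign: Ms4a1 in T cells became 0.13 with types from clusters, and Ms4a1 in dendritic cells became -0.37 with the mean CPM of each cell. The cause was not tested. Monocytes, with 27 and 37 cells, limit what depth can show. No paired analysis was possible because each group has 1 library.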
